A study of Mus musculus with 8 samples.

Results

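The proteasome genes were followed in mouse neural stem cells (NSCs) 7 days after X-ray irradiation (irr). They were taken from the deposited value table by name, as the genes whose only annotated symbol begins with Psma, Psmb, Psmc, Psmd, Psme, Psmf or Psmg, leaving out Psmb8 and Psmb9, and each gene was read by its brightest probe set (by the mean of all 8 arrays). This gave 47 genes, read by 100 probe sets, of 18193 genes with a single symbol on the array. The cells were NSCs derived from murine embryonic stem cells, grown in a defined medium with the mitogens EGF and FGF2. The irr NSCs received 10 Gy in a single exposure and were harvested at day 7 without passaging, whereas the non-irr NSCs received none, and each group had 4 arrays that the series calls biological replicates. Both groups kept the mitogens, the labels name neither the ES cell line behind the arrays nor the age of the non-irr cultures, and no array of non-irr cells that had stopped dividing was analysed here, so that the dose and the days of culture since it cannot be told apart.

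The proteasome degrades proteins that carry chains of ubiquitin. Its core particle is a barrel of stacked rings, in which the α subunits (Psma genes) form the outer rings and the gate, and the β subunits (Psmb genes) form the inner rings with the peptidase sites. The regulatory particle caps the barrel, recognizes ubiquitin, removes it and threads the substrate in with a ring of ATPases (Psmc genes) held by non-ATPase subunits (Psmd genes). In mammalian cells, the transcription factor Nfe2l1 raises transcription of most subunit genes together when proteasome activity falls short, and Nfe2l2 can act on some of them during oxidative stress. Both bind antioxidant response elements.

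Because the subunit genes are known for this shared regulation, their promoters were searched for the antioxidant response element, written as TGACNNNGC and read on both strands. RefSeq promoters (build GRCm38.p6, 250 bases before to 50 after each gene's start) were matched for 39 of the 47 genes. The motif was in 6 of these 39 genes (15.4%) and in 3781 of 27025 mouse genes with a promoter in the same table (14.0%). The CCAAT box, searched in the same way as CCAAT, was in 15 of 39 (38.5%) and in 11096 of 27025 (41.1%). The 6 matches are shown on the strand of their gene, since they are the copies of this motif that the changes described further on can be read beside. Capitals mark the motif, which in Psme4, Psmd12 and Psmc6 stands on the opposite strand and is printed as its reverse complement.
Psmb5, chr14:54618009-54618067, minus strand: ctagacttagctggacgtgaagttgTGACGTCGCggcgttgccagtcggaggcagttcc
Psmb6, chr11:70525323-70525356, plus strand: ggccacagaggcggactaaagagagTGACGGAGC
Psmc6, chr14:45329574-45329630, plus strand: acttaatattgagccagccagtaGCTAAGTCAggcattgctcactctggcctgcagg
Psmd9, chr5:123228134-123228189, plus strand: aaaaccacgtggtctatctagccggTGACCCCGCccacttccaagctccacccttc
Psmd12, chr11:107479278-107479314, plus strand: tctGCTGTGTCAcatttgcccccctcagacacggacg
Psme4, chr11:30771758-30771786, plus strand: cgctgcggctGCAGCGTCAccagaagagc
The motif began 47 bases before the start of Psmb5, 9 before that of Psmb6, 227 before that of Psmc6, 31 before that of Psmd9, 247 before that of Psmd12 and 7 before that of Psme4, where it runs across the start. A match of letters is a description of these windows and was not tested as a binding site.

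Most proteasome genes had lower RNA values in irr than in non-irr NSCs, in most cases by less than 2-fold. Of the 47 genes, 45 passed the intensity filter and were tested, and 39 of these were lower in irr NSCs and none was higher at an adjusted p under 0.05 from limma. The count of higher genes was also 0 at an unadjusted p under 0.05. Over all 11364 genes tested, 37.1% were called lower and 40.2% higher, so that a call in either direction (77.3% of genes) was the rule in this comparison. The irr arrays lay wholly below the non-irr arrays in 38 of the 45, against 35.0% of all genes. The median log2 fold change of the 45 was -0.45 (0.732-fold), against 0.01 over all genes, and their SD over genes was 0.32, against 0.78. At least 2-fold lower were 3 of the 45, near the share of all genes (6.16%). These were Psmg1, Psme3 and Psmc3ip. RNA came from whole cultures, and the values are relative to the other RNA on each array, so that RNA per cell was not measured. Fewer cells with high proteasome RNA, less of it per cell, and a smaller share of it in the RNA of a cell cannot be told apart.

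**Figure D1:**
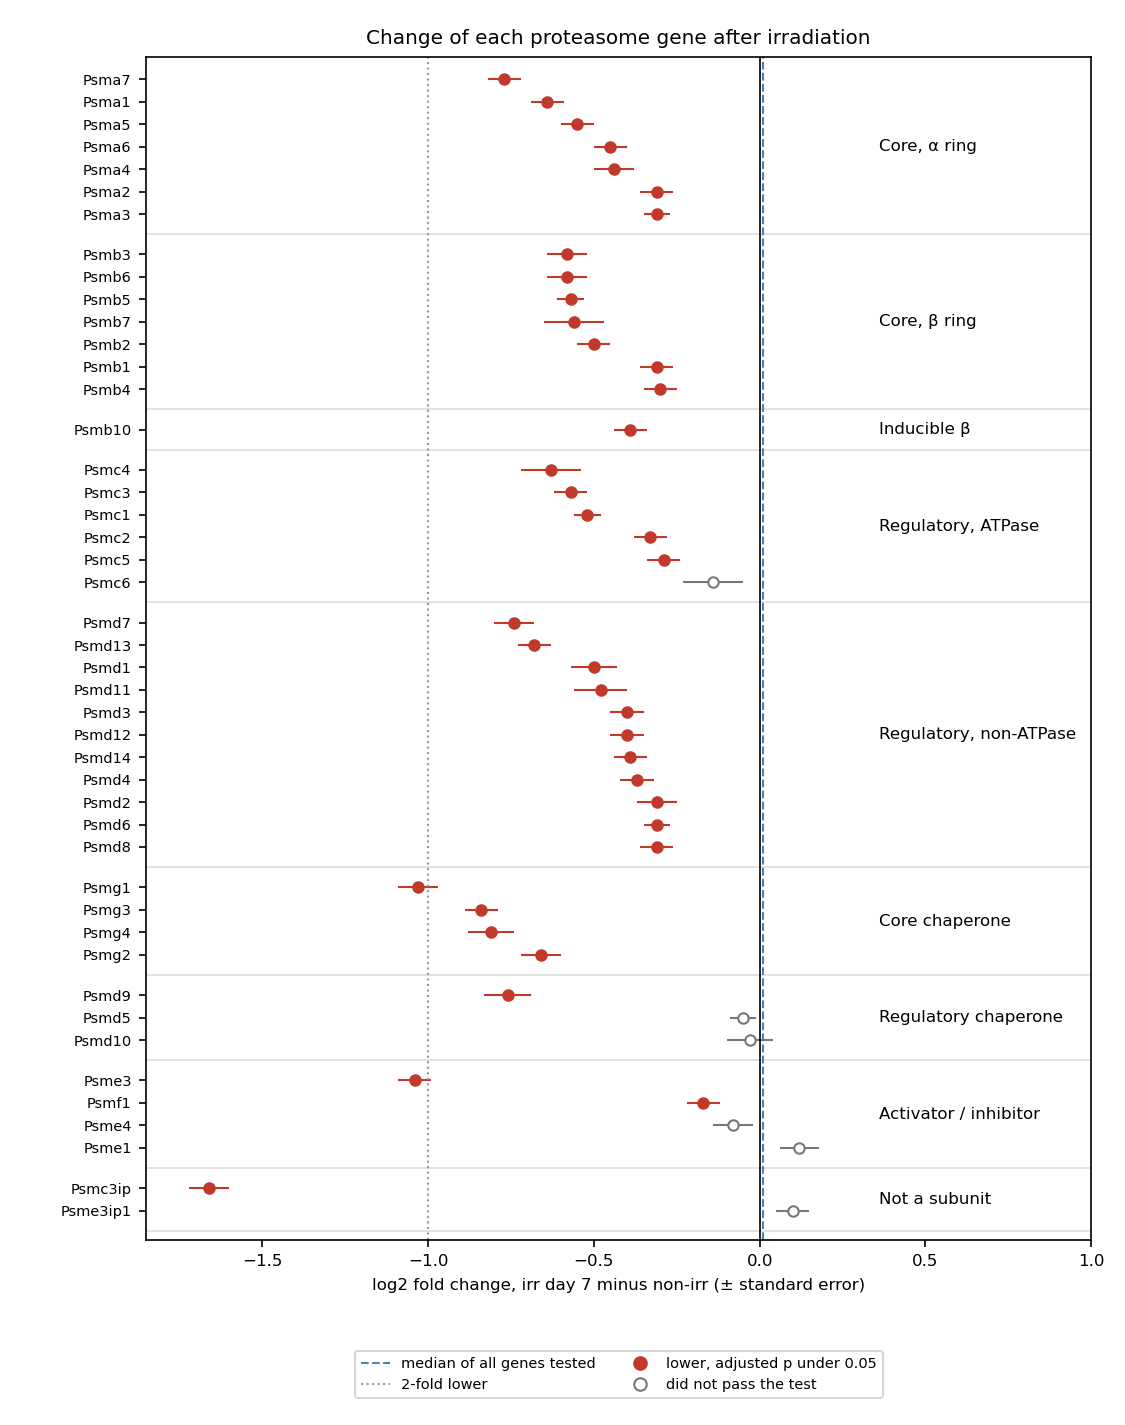
Log2 fold change of irr day 7 against non-irr NSCs (horizontal axis, bars are the standard error of limma, 4 arrays per group) for the 45 proteasome genes tested, grouped by role. Filled points passed an adjusted p under 0.05, and open points did not. Core and regulatory subunits lie between -0.77 and -0.14, the 4 core chaperones between -1.03 and -0.66, and Psme1 and Psme3ip1 lie right of 0 without passing the test.

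These counts rest on the deposited scale, which gives every array nearly the same median (6.22 to 6.24, log2). Centring the arrays on 7 reference genes instead moved the median of all genes by 0.17. With that scale 35 of the 45 were lower and 3 were higher (Psmd5, Psme1 and Psme3ip1), against 25.1% of all genes lower and 52.0% higher, and the medians were -0.35 for the core and -0.23 for the regulatory particle. Psmg1 and Psme3 were then at -0.86 each and no longer 2-fold lower. On the deposited scale 4 of these reference genes were called lower, 1 higher and 2 neither, where 77.3% of all genes were called. Since these calls rest on the deposited scale, they cannot show which scale is the truer one, and this was not tested.

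Arrays of a group correlated at 0.991 to 0.997 across the probe sets kept, while the values between irr and non-irr arrays were 0.912 to 0.923. The second principal component (3.7% of the variance) set irr replicates 1 and 2 (19.1 and 7.2) apart from irr replicates 3 and 4 (-12 and -14.4). Without irr replicates 3 and 4 the count stayed at 39 lower and 0 higher, and without irr replicates 1 and 2 it was 38 lower and 2 higher (Psme1 at 0.20 and Psme3ip1 at 0.15, log2). All 10 neural stem cell markers listed were above an intensity of 100 on every array. In irr NSCs 5 of them were higher (Slc1a3 by 0.46, Cd44 by 0.43, Sox2 by 0.23, Fabp7 by 0.18 and Vim by 0.16). Lower were 2 (Pax6 at -0.54 and Msi1 at -0.17), and 3 were not called. Their summed level (log2) was 15.95 to 16.03 in irr and 15.80 to 15.85 in non-irr NSCs. As intensities are summed before the log, this level is weighted to the brightest genes, Fabp7 and Vim (means of 14.50 and 14.26 in irr NSCs). It says little about the dimmer ones. These readings depend in part on the probe set. Nes, not called at 0.07, had another probe set at -0.95, and Cd44, called higher, had one at -0.22. The summed level (log2) of the astrocyte list was 15.06 to 15.18 in irr and 14.13 to 14.21 in non-irr NSCs, with 6 of 8 genes higher and 2 lower. Aqp4 (5.43, with its lowest probe set at 1.33), Apoe (4.64) and Slc1a2 (2.74) rose most, and the 2 lower genes were Aldoc (-0.73) and Gfap. Gfap was near the filter, at 6.56 to 6.64 in irr and 6.64 to 6.90 in non-irr NSCs (-0.18, adjusted p = 0.019 from limma). The summed level of the mesenchymal list was 11.38 to 11.49 in irr and 9.92 to 9.99 in non-irr NSCs. Of its 5 genes 3 were higher, while Col1a1 and Col1a2 stayed below the filter. These marker counts stand beside 40.2% of all genes called higher and 37.1% called lower. Of 6 microglial genes only Csf1r passed the filter (summed level 7.87 to 7.98 in irr, 7.86 to 8.12 in non-irr NSCs), and Aif1 was below it on all arrays. The gap between the 3′ and 5′ control probe sets of actin was 0.42 to 0.58 (log2) in irr and 0.22 to 0.29 in non-irr NSCs. It was also larger for the transferrin receptor (0.69 to 1.20 in irr, 0.21 to 0.65 in non-irr NSCs) and pyruvate carboxylase (0.97 to 1.13 in irr, 0.43 to 0.68 in non-irr NSCs), and only that of Gapdh overlapped, at -0.09 to -0.03 in irr and -0.13 to -0.03 in non-irr NSCs. The part of these differences in the proteasome results was not tested.

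All 7 α subunits of the core that could be tested were lower in irr NSCs, with a median log2 fold change of -0.45. Psma7 fell most. Its log2 values were 11.95, 11.88, 11.95 and 11.81 on the 4 irr arrays, against 12.71, 12.63, 12.73 and 12.61 on the 4 non-irr arrays, a log2 fold change of -0.77 (standard error 0.05, adjusted p = 5.7e-07 from limma). No irr array came near a non-irr array, and a second Psma7 probe set gave -0.91. Psma1 had 11.73, 11.85, 11.90 and 11.79 in irr NSCs, against 12.43, 12.44, 12.53 and 12.43 in non-irr NSCs, a change of -0.64 (standard error 0.05). Psma5 (-0.55), Psma6 (-0.45) and Psma4 (-0.44) followed, and Psma2 and Psma3 changed least, with -0.31 each. A dim second probe set of Psma3, at 6.60 to 6.65 in irr and 6.41 to 6.52 in non-irr NSCs, went the other way by 0.16 (adjusted p = 6.8e-03 from limma) at about the level of the intensity filter. Where only probe sets with a plain identifier were used, which this one has, Psma3 was called higher, and with the mean of its probe sets it was not called (-0.08, adjusted p = 0.093 from limma). Psma8, the α subunit of the testis proteasome, was below the filter on all arrays (4.38 to 4.55 in irr, 4.14 to 4.68 in non-irr NSCs) and was not tested.

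All 7 constitutive β subunits fell as well, with a median of -0.56. The 3 that carry the peptidase sites changed almost alike. Psmb5, the chymotrypsin-like subunit, had 12.14, 12.08, 12.18 and 12.15 in irr NSCs, against 12.73, 12.67, 12.76 and 12.69 in non-irr NSCs, a change of -0.57 (standard error 0.04, adjusted p = 1.4e-06 from limma). Psmb6, the caspase-like subunit, had 12.25, 12.30, 12.44 and 12.34 in irr NSCs, against 12.99, 12.88, 12.93 and 12.83 in non-irr NSCs, a change of -0.58 (standard error 0.06). Psmb7, the trypsin-like subunit, had 10.27, 10.29, 10.52 and 10.38 in irr NSCs, against 11.05, 10.86, 11.07 and 10.73 in non-irr NSCs, a change of -0.56 (standard error 0.09). In each of the 3 the groups did not overlap, and the fold in irr NSCs was 0.671 to 0.677. Psmb5 and Psmb6 are among the genes whose promoter carries the element printed above, and for Psmb7 no promoter was matched. Among the subunits without a peptidase site, Psmb3 had 12.00, 12.07, 12.22 and 12.12 in irr NSCs, against 12.72, 12.62, 12.71 and 12.68 in non-irr NSCs, the largest change of the β ring (-0.58, standard error 0.06, adjusted p = 7.0e-06 from limma). Psmb2 changed by -0.50, and Psmb1 (-0.31) and Psmb4 (-0.30) changed least. Of the 14 core subunits only Psmb4 lost its call on the reference-gene scale (-0.13, adjusted p = 0.052 from limma).

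Psmb10, which replaces Psmb7 in the immunoproteasome of interferon-exposed and immune cells, was lower too. It had 9.36, 9.30, 9.33 and 9.41 in irr NSCs, against 9.80, 9.62, 9.81 and 9.70 in non-irr NSCs, a change of -0.39 (standard error 0.05, adjusted p = 1.2e-04 from limma). Psmb11, the β subunit of the thymus proteasome, was below the filter on all arrays, at 4.18 to 4.49 in irr and 4.25 to 4.60 in non-irr NSCs.

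Of the 6 ATPases that unfold substrates at the mouth of the core, 5 were lower, with a median over the 6 of -0.42. Psmc4 fell most, with 12.06, 12.44, 12.54 and 12.29 in irr NSCs, against 13.01, 13.01, 12.97 and 12.87 in non-irr NSCs (-0.63, standard error 0.09, adjusted p = 1.7e-04 from limma). Its irr arrays were more spread (SD 0.21) than its non-irr arrays (SD 0.06), but a second probe set gave -0.68 with a standard error of 0.05. Psmc3 (-0.57), Psmc1 (-0.52), Psmc2 (-0.33) and Psmc5 (-0.29) were lower on all irr than on all non-irr arrays. The exception was Psmc6, with 11.51, 11.55, 11.28 and 11.36 in irr NSCs, against 11.47, 11.72, 11.67 and 11.41 in non-irr NSCs. The groups overlapped, the change was -0.14 (standard error 0.09, adjusted p = 0.16 from limma), and the 2 other Psmc6 probe sets gave 0.10 and 0.03. In all 3 probe sets the non-irr replicates 2 and 3 were higher than the non-irr replicates 1 and 4.

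All 11 non-ATPase subunits of the regulatory particle were lower in irr NSCs, with a median of -0.40 and a range of -0.74 to -0.31. Psmd7, the inactive partner of the deubiquitinase Psmd14 in the lid, had the largest change of the brightest probe sets. It had 11.28, 11.35, 11.22 and 11.14 in irr NSCs, against 11.95, 11.99, 12.05 and 11.93 in non-irr NSCs, a change of -0.74 (standard error 0.06, adjusted p = 1.2e-06 from limma). A dimmer Psmd7 probe set gave -0.22, so that with the mean of its probe sets Psmd7 was at -0.48 and Psmd13 at -0.61. Psmd14 itself changed by less, with 12.30, 12.27, 12.16 and 12.21 in irr NSCs, against 12.66, 12.63, 12.64 and 12.57 in non-irr NSCs (-0.39, standard error 0.05). The lid subunit Psmd13 changed by -0.68, and the other lid subunits Psmd11 (-0.48), Psmd3 and Psmd12 (-0.40 each), and Psmd6 and Psmd8 (-0.31 each) by less. All 6 probe sets of Psmd11 past the filter were negative (-0.59 to -0.18). Of the large scaffold subunits of the base, Psmd1 changed by -0.50 and Psmd2 by -0.31, and the ubiquitin receptor Psmd4 changed by -0.37. Psmd4 had a dimmer probe set that did not pass the test (-0.09, adjusted p = 0.45 from limma). On the reference-gene scale Psmd2 (-0.14, adjusted p = 0.051) and the ATPase Psmc5 (-0.12, adjusted p = 0.075, both from limma) were no longer called.

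Set side by side, the core and the regulatory particle were both lower in irr NSCs, and whether their changes differed in size was not tested. All 14 core subunits tested and 16 of 17 regulatory subunits were lower, the medians were -0.53 and -0.40, and the SD over genes was 0.14 in the core and 0.16 in the regulatory particle. Over all genes tested 37.1% were lower and the median was 0.01, which stands beside each count by role. The mean log2 value of the core subunits was 12.32, 12.33, 12.42 and 12.33 on the irr arrays, against 12.87, 12.82, 12.88 and 12.79 on the non-irr arrays. That of the regulatory subunits was 11.84, 11.87, 11.89 and 11.86 on the irr arrays, against 12.30, 12.31, 12.32 and 12.28 on the non-irr arrays. On both, every irr array was below every non-irr array, by a mean of -0.491 for the core and -0.434 for the regulatory particle. Their difference, core minus regulatory, was 0.477, 0.457, 0.528 and 0.461 in irr NSCs (0.481 ± 0.033, SD, n = 4), against 0.569, 0.506, 0.567 and 0.510 in non-irr NSCs (0.538 ± 0.034, SD, n = 4). This is a shift of -0.057, and the groups overlapped, as irr replicate 3 was above non-irr replicates 2 and 4.

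**Figure D2:**
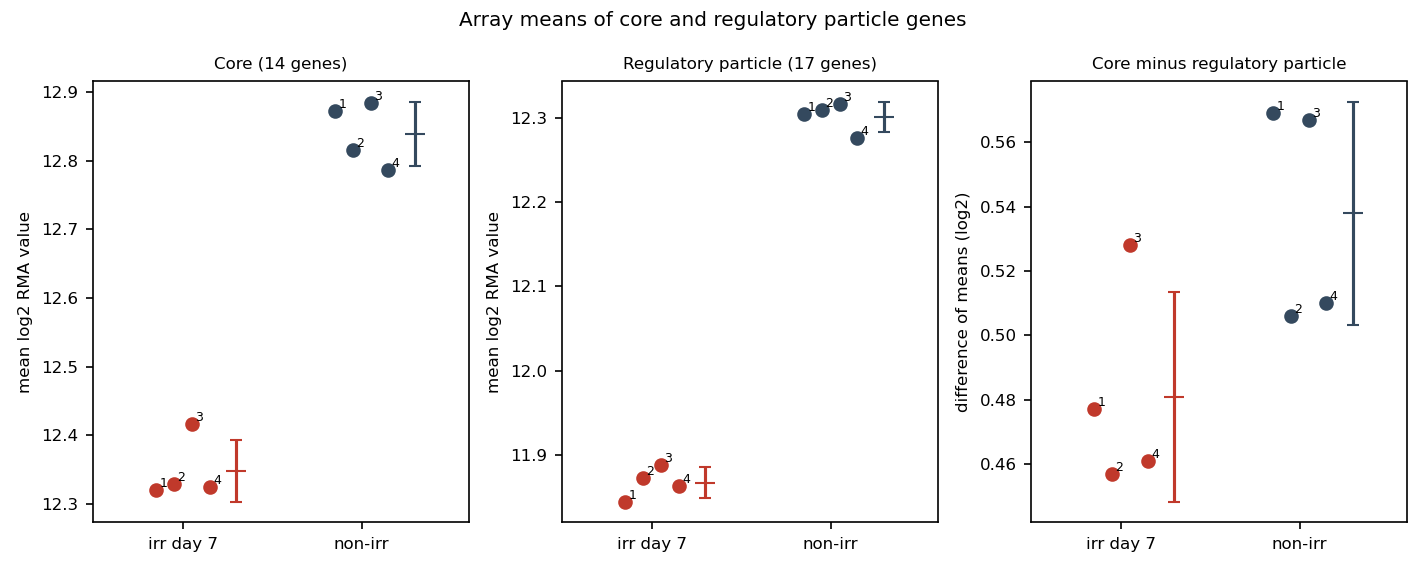
Mean log2 RMA value over the 14 core subunits (left) and the 17 regulatory subunits (middle) on each array, and their difference (right), with irr day 7 left of non-irr, replicate numbers beside the points, and bars giving the mean ± SD of 4 arrays. The vertical axes differ in span. Both means separate the groups, whereas in the difference irr replicate 3 (0.528) lies above non-irr replicates 2 and 4 (0.506 and 0.510).

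All 4 chaperones that assemble the core were lower, with a median of -0.83 (0.564-fold), and they are known to act as pairs, Psmg1 with Psmg2 and Psmg3 with Psmg4, to build the α ring. Psmg1 had 10.35, 10.31, 10.52 and 10.41 in irr NSCs, against 11.38, 11.42, 11.55 and 11.36 in non-irr NSCs, a change of -1.03 (standard error 0.06, adjusted p = 2.6e-07 from limma) or 2.04-fold lower. Psmg3 had 9.75, 9.73, 9.84 and 9.77 in irr NSCs, against 10.70, 10.52, 10.64 and 10.60 in non-irr NSCs, a change of -0.84 (standard error 0.05). The irr arrays were well below the non-irr arrays in both genes. Psmg4 changed by -0.81 (standard error 0.07) and Psmg2 by -0.66 (standard error 0.06). A second, dimmer Psmg3 probe set gave -0.35. Psmg1 changed by more than any of the 14 core subunits, also with the mean of all probe sets of each gene, where it was at -1.03, Psma7 at -0.84, Psmg4 at -0.81, Psmg2 at -0.69 and Psmg3 at -0.60. The difference between chaperones and subunits was not tested. Pomp, the maturation factor of the core, changed much less, with 12.78, 12.79, 12.87 and 12.79 in irr NSCs, against 13.04, 13.01, 13.16 and 13.06 in non-irr NSCs (-0.26, standard error 0.05, adjusted p = 7.1e-04 from limma). It lost its call on the reference-gene scale (-0.092, adjusted p = 0.15 from limma).

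Of the 3 chaperones of the ATPase ring, which leave the finished particle, only Psmd9 was lower. It had 9.42, 9.44, 9.61 and 9.59 in irr NSCs, against 10.29, 10.18, 10.41 and 10.23 in non-irr NSCs, a change of -0.76 (standard error 0.07, adjusted p = 3.3e-06 from limma), and its promoter carries the printed element 31 bases before the start. Psmd10, also known as gankyrin, had 10.12, 10.22, 10.27 and 10.21 in irr NSCs, against 10.22, 10.14, 10.44 and 10.14 in non-irr NSCs (-0.03, standard error 0.07, adjusted p = 0.73 from limma). Its sign turned without non-irr replicate 3 (0.04). Psmd5 had 10.33 to 10.41 in irr and 10.37 to 10.46 in non-irr NSCs (-0.05, standard error 0.04, adjusted p = 0.31 from limma). Thus 1 of the 3 was called lower, near the 37.1% of all genes called lower, which is no result about these chaperones as a group.

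**Figure D3:**
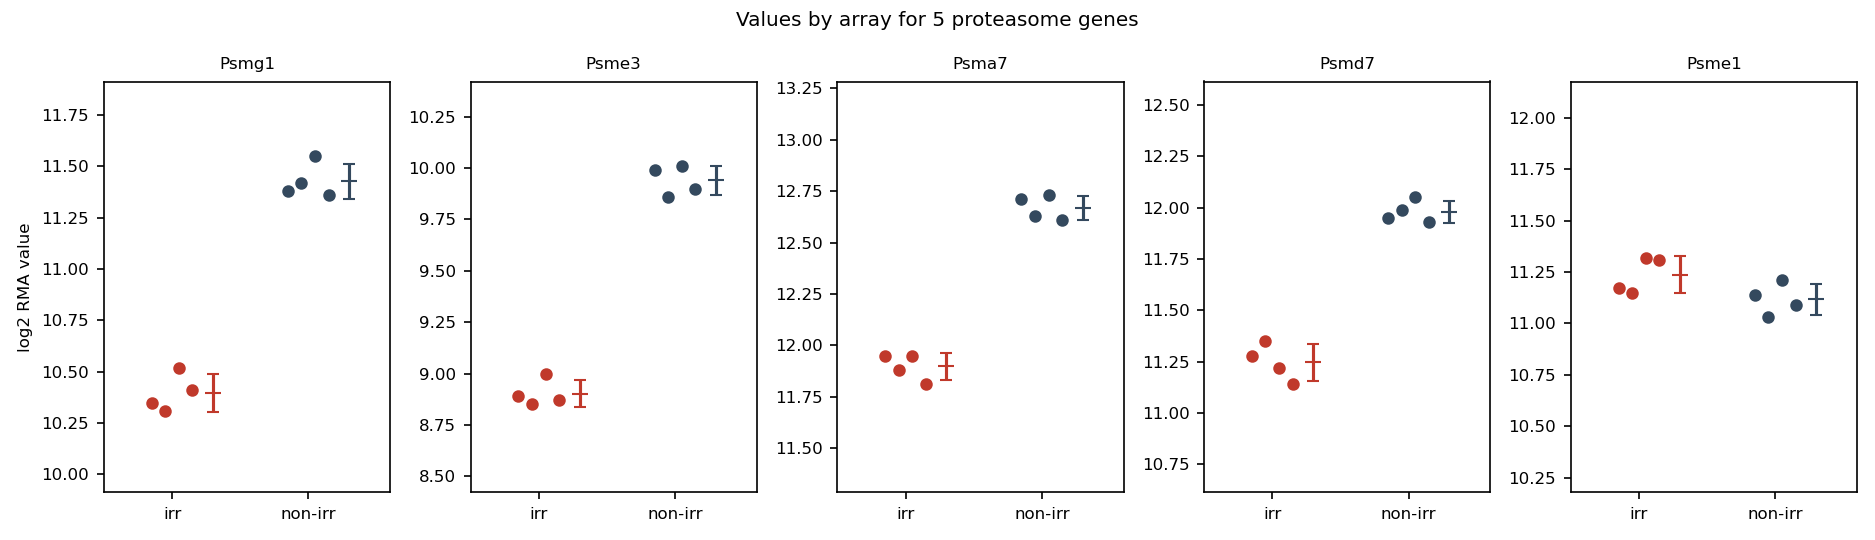
Log2 RMA value on each array for Psmg1, Psme3, Psma7, Psmd7 and Psme1, with irr left of non-irr in each panel, 1 point per array and bars giving the mean ± SD of 4 arrays. Each panel spans the same number of log2 units around the gene's own mean. The groups are about 1 log2 unit apart in Psmg1 (-1.03) and Psme3 (-1.04), closer in Psma7 (-0.77) and Psmd7 (-0.74), and overlap in Psme1 (0.12).

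The alternative activators, which open the core in place of the regulatory particle, did not move together. Psme3, the nuclear activator REGγ that promotes degradation without ubiquitin, had 8.89, 8.85, 9.00 and 8.87 in irr NSCs, against 9.99, 9.86, 10.01 and 9.90 in non-irr NSCs. This was a change of -1.04 (standard error 0.05, adjusted p = 7.2e-08 from limma) or 2.05-fold lower, and its second probe set gave -0.74. Psme1, the interferon-inducible relative of Psme3, had 11.17, 11.15, 11.32 and 11.31 in irr NSCs, against 11.14, 11.03, 11.21 and 11.09 in non-irr NSCs (0.12, standard error 0.06, adjusted p = 0.094 from limma), and the groups overlapped. Psme4, an activator known from DNA repair and spermatogenesis, had 11.17, 11.17, 10.99 and 11.16 in irr NSCs, against 11.12, 11.27, 11.20 and 11.20 in non-irr NSCs (-0.08, adjusted p = 0.23 from limma), while its dimmer probe sets gave -0.17 (adjusted p = 0.044) and -0.31 (adjusted p = 0.017, both from limma). Psme2 and Psme2b share 1 probe set with both symbols and were left out.

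Psmf1, which inhibits the core in the test tube, was the one gene whose brighter and dimmer probe sets went opposite ways with clear sizes. The brightest probe set, used in the counts above, had 9.40, 9.41, 9.54 and 9.43 in irr NSCs, against 9.66, 9.52, 9.66 and 9.62 in non-irr NSCs, a change of -0.17 (standard error 0.05, adjusted p = 0.015 from limma) with overlapping groups. The next had 9.10, 9.30, 9.39 and 9.32 in irr NSCs, against 8.50, 8.32, 8.65 and 8.46 in non-irr NSCs, a change of 0.80 (standard error 0.08, adjusted p = 1.3e-05 from limma). The other 2 gave 0.85 (adjusted p = 5.4e-06) and 0.83 (adjusted p = 3.4e-05, both from limma), the last of them below the filter on all non-irr arrays. In all 3 the irr arrays lay above the non-irr arrays, so that with the mean of its probe sets Psmf1 was higher (0.58, adjusted p = 4.6e-06 from limma), and without irr replicates 1 and 2 the brightest alone was not called (-0.13, adjusted p = 0.11 from limma). The direction of Psmf1 therefore depends on the probe set and is not settled here.

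**Figure D4:**
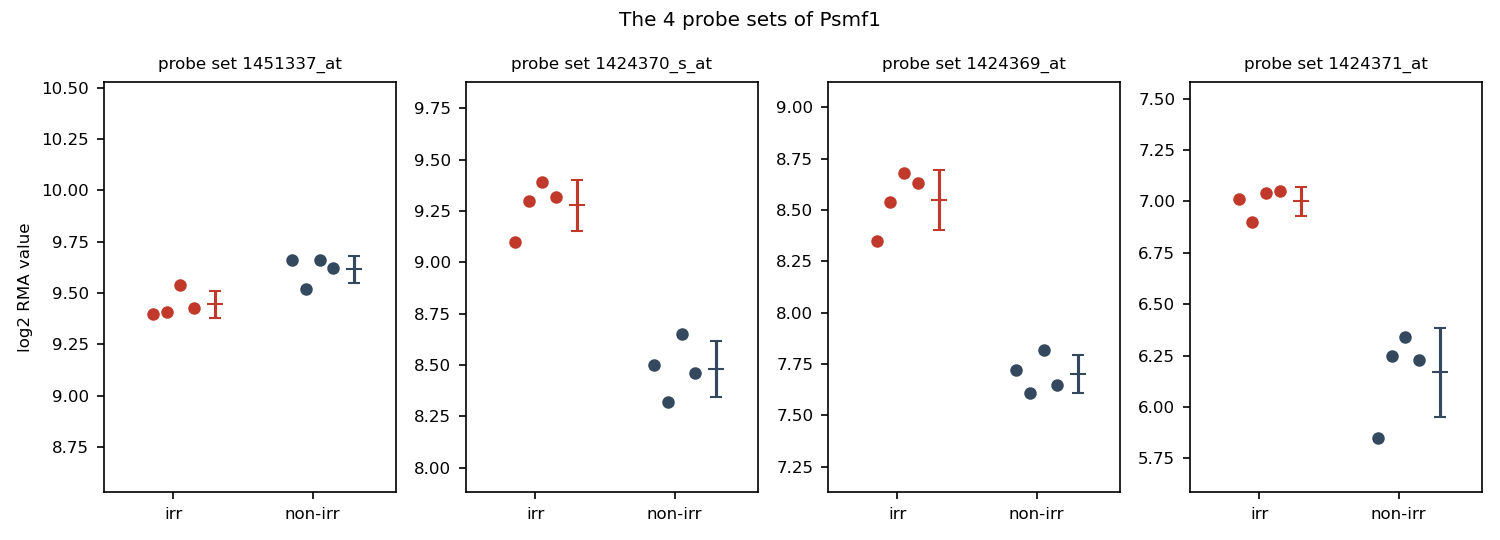
Log2 RMA value on each array for the 4 probe sets of Psmf1, ordered by mean level, with irr left of non-irr, 1 point per array and bars giving the mean ± SD of 4 arrays. Each panel spans the same number of log2 units. The brightest probe set is slightly lower in irr NSCs (-0.17), and the other 3 are higher (0.80 to 0.85).

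The symbol rule also took in a pair of genes that are not proteasome subunits. Psmc3ip, which acts with recombinases in homologous recombination, had 8.72, 8.78, 8.92 and 8.71 in irr NSCs, against 10.48, 10.46, 10.46 and 10.37 in non-irr NSCs. Its change of -1.66 (standard error 0.06, adjusted p = 5.6e-09 from limma) was the largest of the 45, and a second probe set gave -1.84. Psme3ip1, whose protein binds Psme3, had 10.64, 10.66, 10.78 and 10.72 in irr NSCs, against 10.64, 10.55, 10.63 and 10.60 in non-irr NSCs (0.10, standard error 0.05, adjusted p = 0.095 from limma). Without this pair, 38 of 43 proteasome genes were lower, with the same median of -0.45 and a range of -1.04 to 0.12.

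Genes that work around the proteasome were taken from 4 lists, of which 23 of 32 genes were tested, 13 were lower and 7 higher, where 37.1% of all genes were lower and 40.2% higher. All 8 tested of the other proteasome parts were lower, with a median of -0.30. Uchl5, a deubiquitinase of the regulatory particle, had 10.43, 10.50, 10.32 and 10.33 in irr NSCs, against 11.18, 11.27, 11.24 and 11.17 in non-irr NSCs, a change of -0.82 (standard error 0.05, adjusted p = 4.9e-07 from limma). Usp14, the other deubiquitinase that docks on the regulatory particle, changed by -0.36 (standard error 0.06), and Ecpas, a scaffold that holds core and regulatory particle together, by -0.40 (standard error 0.08). Sem1, a small subunit of the lid, changed by only -0.12 (standard error 0.05, adjusted p = 0.048 from limma), a call that was lost in 11 of 20 alternative settings. Adrm1, the receptor that anchors Uchl5, was not analysed here. Among the shuttles and extraction factors that bring substrates to the proteasome, 5 of 10 were lower (Rad23b, Ubqln1, Ubqln2, Ubqln4 and Nploc4), 4 higher (Zfand2a, Zfand5, Ufd1 and Bag6), and Vcp was not called (-0.08, adjusted p = 0.10 from limma), which is near those shares and no result about the list. Rad23b, a ubiquitin shuttle, had 10.62, 10.64, 10.79 and 10.78 in irr NSCs, against 11.41, 11.45, 11.41 and 11.43 in non-irr NSCs (-0.72, standard error 0.05), a change that was smaller with the mean of its probe sets (-0.48) or with plain identifiers (-0.46). Zfand2a, a stress-inducible protein that binds the proteasome, had 10.25, 10.26, 10.32 and 10.38 in irr NSCs, against 9.15, 9.10, 9.16 and 9.09 in non-irr NSCs, an increase of 1.18 (standard error 0.05) or 2.26-fold. Zfand5, which activates the proteasome, was higher by 0.54 (standard error 0.05), and Ufd1, a cofactor of the extraction ATPase Vcp, by 0.33 (standard error 0.06). Dimmer probe sets of Ufd1 and Ecpas went the other way, at -0.21 for Ufd1 and 0.34 for Ecpas. The 4 probe sets of Zfand5 past the filter ranged from 0.01 to 0.54. Of the ubiquitin supply genes only Uba6 was tested (-0.01, adjusted p = 0.92 from limma).

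Most of the genes listed around proteasome transcription went the opposite way to the subunits. Of 4 tested, 3 were higher, each at least 2-fold, where 8.88% of all genes were 2-fold higher, and none was lower, also at an unadjusted p under 0.05. Nfe2l1 had 11.82, 11.84, 11.79 and 11.90 in irr NSCs, against 10.57, 10.66, 10.71 and 10.85 in non-irr NSCs, a change of 1.14 (standard error 0.06, adjusted p = 1.1e-07 from limma) or 2.20-fold. Nfe2l2 had 12.47, 12.56, 12.36 and 12.48 in irr NSCs, against 11.13, 11.07, 11.04 and 11.05 in non-irr NSCs, a change of 1.39 (standard error 0.05, adjusted p = 9.7e-09 from limma) or 2.63-fold. Both were thus higher on every irr array at the same time as 14 of 14 core subunits were lower. Ngly1, which removes sugar chains from Nfe2l1 on its way to activity, had 10.26, 10.24, 10.09 and 10.26 in irr NSCs, against 9.03, 9.16, 9.27 and 9.07 in non-irr NSCs, a change of 1.08 (standard error 0.07, adjusted p = 2.4e-07 from limma) or 2.12-fold. Akirin2, which carries proteasomes into the nucleus, differed by 0.02 (standard error 0.04, adjusted p = 0.72 from limma), with 12.31 to 12.35 in irr and 12.30 to 12.33 in non-irr NSCs. On the reference-gene scale, where 52.0% of all genes were higher, Akirin2 was called higher too (0.19, adjusted p = 2.3e-03 from limma). Of the 6 genes with the element in their promoter, Psmb5, Psmb6, Psmd9 and Psmd12 were lower in irr NSCs and Psmc6 and Psme4 were not called. Among all members tested 39 of 45 were lower, and among all genes 37.1%. The element was about as frequent in members (15.4%) as in all genes (14.0%), and a link between it and the changes was not tested. The arrays measured RNA, and neither the processed, active form of Nfe2l1 nor proteasome activity was measured on them.

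**Figure D5:**
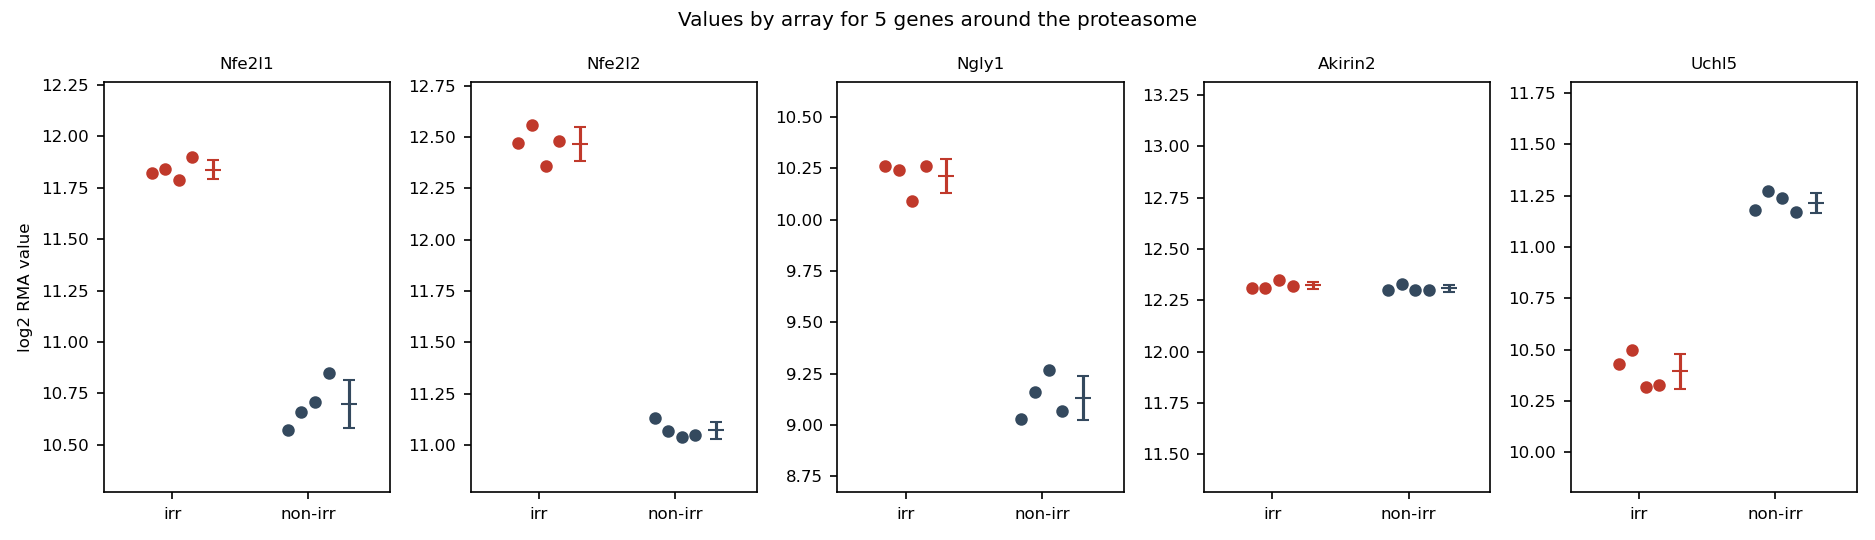
Log2 RMA value on each array for Nfe2l1, Nfe2l2, Ngly1, Akirin2 and Uchl5, with irr left of non-irr in each panel, 1 point per array and bars giving the mean ± SD of 4 arrays. Each panel spans the same number of log2 units around the gene's own mean. The irr arrays lie wholly above the non-irr arrays in Nfe2l1 (1.14), Nfe2l2 (1.39) and Ngly1 (1.08), overlap with them in Akirin2 (0.02), and lie wholly below them in Uchl5 (-0.82).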

How the data were processed

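Total RNA of 4 irr and 4 non-irr NSC cultures was hybridized to Affymetrix GeneChip mouse arrays (45101 probe sets, 64 of them controls). Intensities and detection calls came from the authors' run of GCOS, RMA was then used for normalization, and the log2 values used here are as deposited, from 2.48 to 14.98. The versions of both tools are not given in the sources used here, and detection calls were not used here. RMA sets all arrays to one distribution, so that a change shared by most genes would not show.

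Probe sets were named from the platform annotation, with symbols updated through the Entrez number for 34754. Of all probe sets, 34958 had 1 symbol, 932 several and 9211 none. Control probe sets were left out, and those with an intensity over 100 (log2 6.64) on at least 1 array were kept, which left 78 of the 100 proteasome probe sets. Groups were compared with limma 3.58.1 in R 4.3.3 (two-sided, Benjamini-Hochberg adjustment over all probe sets kept) at an adjusted p under 0.05, with 2-fold changes counted beside it. Each gene was read by its brightest probe set. Lists are described by counts and medians. The members and lists were chosen with earlier results of these data known. Values of all arrays are given for genes changed at least 2-fold and for those of each role with the largest called change, for Nfe2l1, Pomp and the pathway genes with the 2 largest changes in each direction. Other genes given by array, among them Psma1, Psmb5, Psmb6, Psmb7, Psmc6, Psmd10, Psmd14, Psmg3, Psme1, Psme4, Psmf1, Ngly1 and Akirin2, were singled out after their values were seen. The planned scale of 10 reference genes used the 7 found with a single symbol. With 4 arrays per group, their number limits the precision. The procedure was also run on simulated arrays with independent noise in which few probe sets changed. That setting is unlike these data, in which most genes were called, so that it does not test the procedure for them. Figures were drawn with matplotlib 3.10.9. The alternatives were 3 other intensity filters, centring on the median or on reference genes, limma with trend and robust settings, array weights or a replicate block, leaving out each array, the mean over a gene's probe sets, plain identifiers only, and a 2-fold threshold.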

Additional observations from a re-analysis of the deposited data

Results flagged for a closer look

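In each group of 4 arrays, a value was marked when its gap to the nearest other array, as a share of the group's range, passed Dixon's critical value, which chance gives in about 1 group in 20. Of 114 groups examined, 7 were marked. Irr replicate 3 held 5 of these. It was higher than the rest in Psmb4 (13.16, others 13.06 to 13.07), in Pomp (12.87, others 12.78 to 12.79) and in the mean of the core subunits (12.42, others 12.32 to 12.33), and lower in Psme4 (10.99, others 11.16 to 11.17) and in Ngly1 (10.09, others 10.24 to 10.26). Non-irr replicate 4 was lower in Psma2 (13.28, others 13.39), and non-irr replicate 2 was higher in Akirin2 (12.33, others 12.30). In Psmb4, Pomp, Ngly1, Psma2 and the core mean the irr and non-irr arrays did not overlap even so.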

How the results depend on the processing

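Without each array in turn, 39 members were lower and 0 higher each time, with 14 core and 16 regulatory subunits lower, core medians of -0.56 to -0.49, regulatory medians of -0.41 to -0.38, core minus regulatory shifts of -0.073 to -0.047, and 10 to 12 pathway genes lower and 6 to 7 higher. Same-numbered arrays correlated at 0.043, 0.376, -0.207 and 0.509 in their deviations from the group means. So few and mixed values do not settle whether the numbers pair the samples. The replicate block left 39 members, 14 core and 16 regulatory subunits lower. Of 1073 values of single genes under 20 alternatives, 1039 kept their direction and side of the threshold. Centring on reference genes gave 3 members higher, 6 pathway genes lower, medians of -0.35 (core) and -0.23 (regulatory), and turned the sign of Psmc6 (0.029), Psmd10 (0.14), Psmd5 (0.12), Psme4 (0.093), Psmf1 (0.0023) and Sem1 (0.051). With no intensity filter, where Psma8 enters the core, the shift in core mean minus regulatory particle mean was -0.022, and 9 pathway genes were lower in place of 13. With plain identifiers 1 member, Psma3 (0.16), was higher, a core subunit, the core median was -0.47 over 12 genes, and Psmc6 was at 0.03. With the mean of all probe sets 1 member, Psmf1 (0.58), was higher. At a 2-fold threshold 3 members, 0 core, 0 regulatory and 0 pathway genes were lower and 4 pathway genes higher. With single arrays left out, Psmd10 ranged from -0.061 to 0.039, its one positive value, without non-irr replicate 3. The settings chosen after seeing the data gave a regulatory median of -0.42 without irr replicates 3 and 4, and of -0.36, with 2 members higher and Psmd10 at 0.0081, without irr replicates 1 and 2. The cause of these differences was not tested. Fold changes of dim probe sets near an intensity of 100 are less certain in size.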
